A study of Homo sapiens with 4 samples.

Results

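The replication-dependent histone gene clusters were examined in the open chromatin of ME-1 cells, an established line of human acute myeloid leukaemia cells carrying inv(16). This rearrangement makes the fusion protein CBFβ-SMMHC, and AI-10-49 is a small molecule that keeps this fusion from binding RUNX1. Cells were kept for 6 h in AI-10-49 at 1 µM (treated) or in its solvent DMSO (control), and open DNA was mapped by ATAC-seq, which reads where the transposase Tn5 can cut. Each treatment had 2 libraries, given below in the order replicate 1, replicate 2. All come from 1 cell line, so control and treated cells share the rearrangement. The members are peaks with a midpoint in 5 windows of hg19: the large cluster of chromosome 6 (26.01 to 26.29 Mb), the small one (27.09 to 27.13 Mb), the middle-sized one (27.77 to 27.87 Mb), and on chromosome 1 the first (149.78 to 149.87 Mb) and second cluster (228.60 to 228.66 Mb). These 0.57 Mb held 65 and 61 of 67388 and 65132 control peaks, and 56 and 66 of 48930 and 53438 treated peaks. Merging overlapping peaks of the 4 libraries gave 88 regions in the windows, out of 103230 in all.

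Histones are the proteins around which DNA is wound in nucleosomes. H2A, H2B, H3 and H4 form the core of the nucleosome, and H1 binds the linker DNA between nucleosomes. The replication-dependent genes are small and packed in a few clusters, are transcribed mainly while DNA is copied in S phase, and give transcripts that end in a stem-loop in place of a poly(A) tail. Their transcription takes place in the histone locus body, a nuclear compartment organised by the protein NPAT. In the order of RefSeq genes, the run from H1-1 to H4C8 in the large cluster held 32 protein-coding histone genes, with 5 of H1, 4 of H2A, 8 of H2B, 7 of H3 and 8 of H4. Among the other genes of this run is HFE, a regulator of iron uptake. The run from H2BC11 to H2AC12 in the small cluster held 5 histone genes, and that from H2BC13 to H2BC17 in the middle-sized cluster held 16. On chromosome 1, the run from H2BC18 to H2AC21 held 11, and that from H3-4, a testis form of H3, to H2BC26 held 3. Of these 67 genes, 6 encode H1, 16 H2A, 17 H2B, 14 H3 and 14 H4. The borders of the windows were not checked against gene positions, and no peak was given to a single gene, as an annotation of that build was not used here.

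The sequences that follow show the kind of promoter these windows are packed with, 1 for each histone family. They are the 250 bases before the gene start, on the gene's strand, of the first gene of that family in the large cluster with an entry in RefSeq's promoters of GRCh38.p14, all on chromosome 6. Capitals mark the TATA box (TATAA), the CCAAT box (CCAAT), the octamer (ATTTGCAT) and the RUNX core (TGTGGT), each searched on both strands.
H1-1: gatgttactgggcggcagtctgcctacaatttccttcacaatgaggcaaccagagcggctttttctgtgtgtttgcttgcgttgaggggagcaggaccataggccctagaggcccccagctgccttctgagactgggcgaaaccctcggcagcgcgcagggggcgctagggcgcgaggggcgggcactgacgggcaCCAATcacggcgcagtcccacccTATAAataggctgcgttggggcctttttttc
H2AC4: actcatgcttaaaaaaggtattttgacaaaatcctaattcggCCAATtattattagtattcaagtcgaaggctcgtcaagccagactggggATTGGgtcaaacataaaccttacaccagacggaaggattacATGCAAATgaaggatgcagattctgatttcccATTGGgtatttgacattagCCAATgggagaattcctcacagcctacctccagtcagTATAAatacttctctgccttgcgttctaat
H2BC3: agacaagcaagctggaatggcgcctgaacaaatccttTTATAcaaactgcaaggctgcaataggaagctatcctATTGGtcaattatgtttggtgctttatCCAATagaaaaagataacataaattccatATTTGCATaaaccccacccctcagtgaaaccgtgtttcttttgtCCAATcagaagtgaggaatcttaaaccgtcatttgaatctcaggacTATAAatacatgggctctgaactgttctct
H3C1: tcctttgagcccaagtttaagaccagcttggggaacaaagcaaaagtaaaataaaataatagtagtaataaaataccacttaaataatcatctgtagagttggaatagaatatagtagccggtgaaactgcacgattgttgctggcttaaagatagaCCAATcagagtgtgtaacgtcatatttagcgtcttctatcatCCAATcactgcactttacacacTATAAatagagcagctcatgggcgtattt
H4C2: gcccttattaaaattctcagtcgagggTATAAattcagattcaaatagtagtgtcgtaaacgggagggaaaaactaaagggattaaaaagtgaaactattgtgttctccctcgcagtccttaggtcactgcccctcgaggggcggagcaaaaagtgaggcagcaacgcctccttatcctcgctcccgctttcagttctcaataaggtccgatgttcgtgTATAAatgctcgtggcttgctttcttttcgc

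Each of the 5 promoters had a TATA box on the gene's strand that began 29 to 31 bases before the start. CCAAT boxes were found in those of H1-1, H2AC4, H2BC3 and H3C1. That of H4C2 held none, and had a further TATAA 223 bases before the start. The octamer, a site read by OCT1, a factor known for its part in H2B transcription, began 120 bases before the start of H2BC3 on the gene's strand and 118 bases before that of H2AC4 on the other strand. None of the 5 held the RUNX core, the short sequence read by the DNA-binding partner of CBFβ.

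Over the clusters, 62 of the 67 histone genes had an entry in RefSeq's promoters. The TATA box was in 57 of them (91.9%), against 19.6% of the promoters of all 27305 genes there. The CCAAT box was in 53 (85.5%), against 33.0% of all genes. Every matched H1, H2A, H2B and H3 promoter had one, and 3 of 12 matched H4 promoters did. The octamer was in 13 of 17 H2B promoters and 10 of 15 H2A promoters, against 1.66% of all genes. It was in 1 of 12 H3 promoters, that of H3C4, whose entry holds the same 250 bases as that of H2AC7, and in no matched H1 or H4 promoter. The RUNX core was in 5 histone promoters (8.06%), against 10.9% of all genes. The median share of G and C bases was 42.6% in the histone promoters and 58% over all genes. Words rich in A and T, such as TATAA and the octamer, occur more readily in the former. The part of base composition in these shares was not tested. These are counts of letters in a short window and do not tell which factor is bound.

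**Figure D1:**
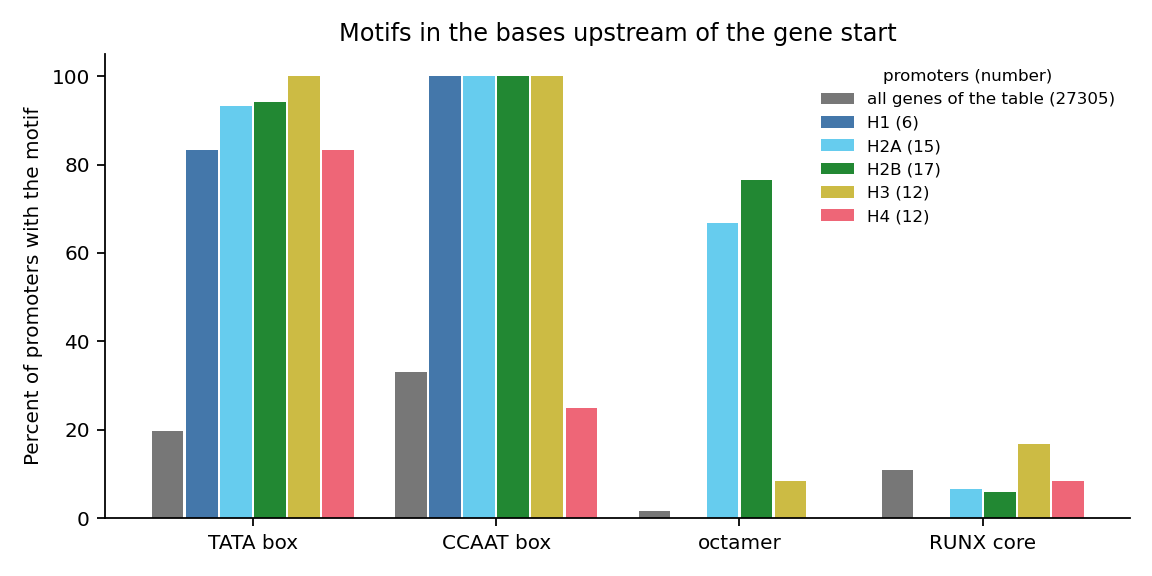
Percent of promoters, 1 per gene in RefSeq's GRCh38.p14, that hold each of 4 motifs on either strand in the 250 bases before the gene start, for all genes and for the 5 histone families, with the number of promoters in the key. The TATA box was in 83.3% to 100% of promoters of each family, the octamer mainly in those of H2A (66.7%) and H2B (76.5%), and the RUNX core in 0% to 16.7%.

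Accessible sites were several times denser in the histone windows than around them. The windows held 114 and 107 peaks per Mb in the control libraries, and 98.2 and 116 in the treated ones. The rest of chr6:25-29 Mb held 40.2 and 36.3 in control and 33.2 and 39.4 in treated cells, and the rest of the genome 22.2 and 21.5 in control and 16.1 and 17.6 in treated cells. The clusters were thus 2.84 to 2.96 times as dense as the surrounding part of chromosome 6 in every library. Against the genome the factor was 5.14 and 4.99 in control and 6.10 and 6.58 in treated libraries. The mean log2 ratios were 1.55 and 2.5, with the same direction in 4 of 4 libraries, and each had a two-sided exact sign-flip permutation p of 0.13, which is the smallest that 4 libraries allow.

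The 3 clusters of chromosome 6 carried this density. The large cluster, with 32 histone genes, held 154 and 125 peaks per Mb in control and 121 and 143 in treated libraries. The small one held 100.0 to 125 and the middle-sized one 110.0 to 150 over the 4 libraries. The first cluster of chromosome 1 was sparser, at 33.3 and 55.6 in control and 55.6 and 66.7 in treated cells, and the second held only 2 and 3 peaks in control and 2 and 1 in treated cells. Without the large cluster the mean log2 ratio to the surrounding part of chromosome 6 was 1.15 in place of 1.55, with the large cluster kept out of that part as well.

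To set this against the genome, it was covered with stretches as long as each window, on 2 staggered grids. Of 21676 stretches of 280 kb, 0 held as many peaks as the large cluster in 3 libraries, and 2 did in treated replicate 1. For the middle-sized cluster, between 9 and 229 of 60677 stretches of 100 kb held as many. The small cluster was matched by 1.37% to 4.67% of its stretches, the first cluster of chromosome 1 by 5.77% to 32.0%, and the second by 18.8% to 47.9%. The 250 bases before H4C14 and H4C15, both in the run of the first cluster of chromosome 1, were identical in RefSeq's entries. Those before H4C11 and H4C12, in the run of the middle-sized cluster, were the same at 245 of 250 positions. Peak numbers in these clusters are uncertain, as the sources used here do not say how reads from such copies were treated.

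**Figure D2:**
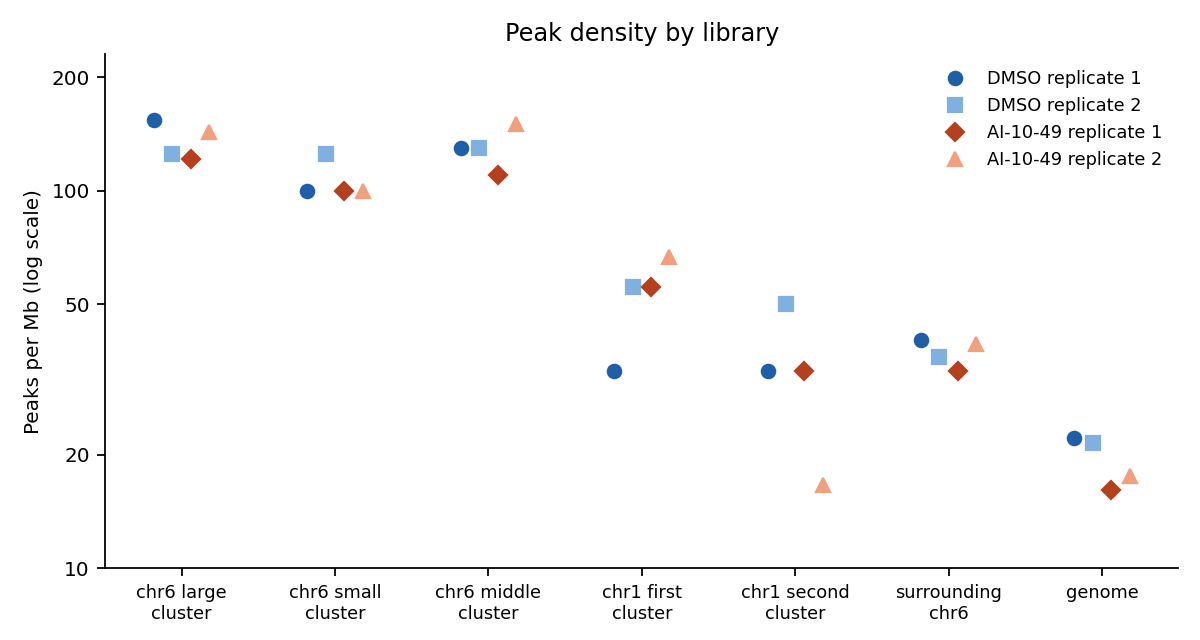
Peaks per Mb (log scale) in each of the 5 histone gene windows, in the rest of chr6:25-29 Mb (surrounding chr6) and in the rest of the genome, with 1 point per library. The 3 windows of chromosome 6 lie between 100.0 and 154 peaks per Mb in every library, the windows of chromosome 1 between 16.7 and 66.7, and the genome between 16.1 and 22.2.

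Sites in the windows were often shared by all libraries and stood close together. A peak in all 4 lists was found at 41 of the 88 regions (46.6%), against 28.1% of all regions of the series and 29.5% in the rest of chr6:25-29 Mb. The large cluster had 25 such regions, or 0.781 per histone gene, and the middle-sized one 9, or 0.562 per gene. The small cluster and the first of chromosome 1 had 3 each, and the second of chromosome 1 had 1. Regions of this kind had a median width of 288 bp in the clusters, 197.5 bp around them and 212 bp in the genome.

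The median gap between neighbouring regions of all 4 lists was 5100 bp in the clusters, 29175 bp in the rest of chr6:25-29 Mb and 38706 bp elsewhere. Cluster gaps were counted only within a window, which limits their length, and short gaps also go with the higher density given above. Of 36 gaps within clusters, 10 were at most 2 kb long (27.8%), against 9 of 62 (14.5%) in the rest of chr6:25-29 Mb and 6.22% in the genome. The widest gap of the large cluster was chr6:26056793-26103920. These 47.1 kb held 3 regions, each in at most 2 lists.

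**Figure D3:**
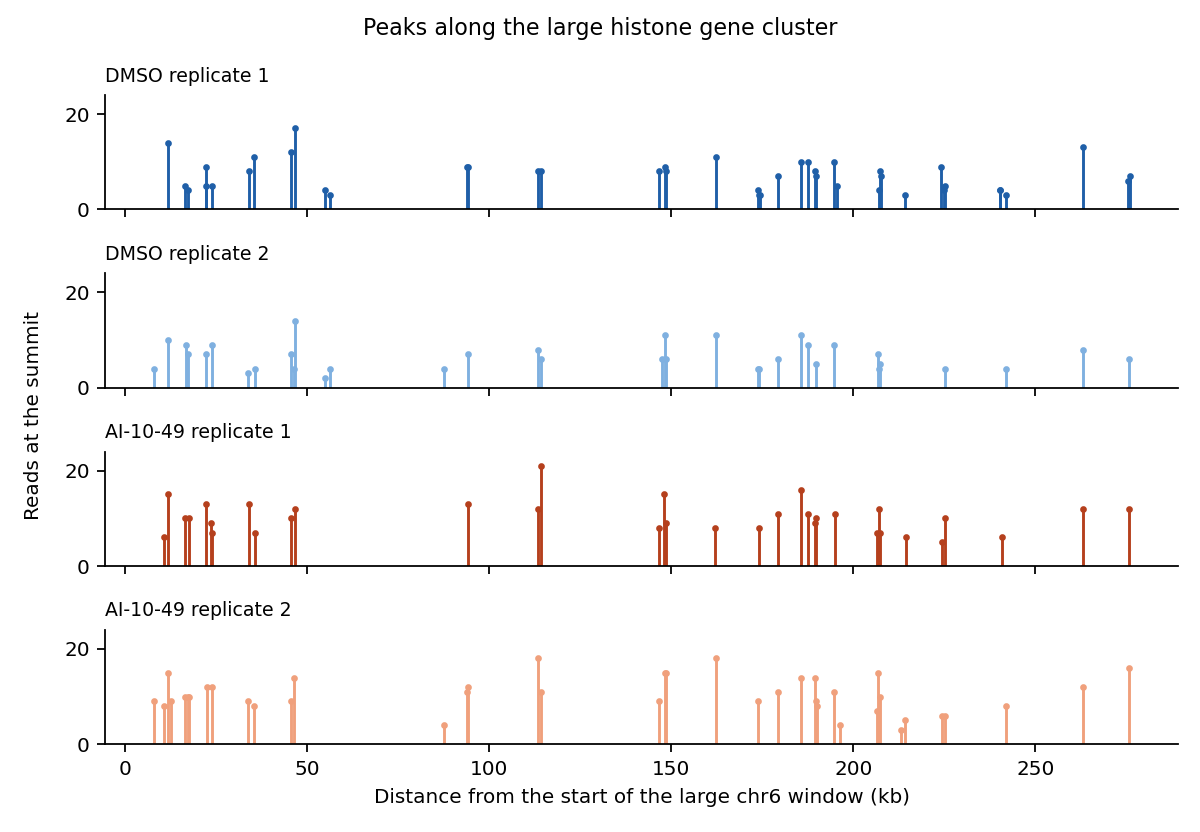
Reads at the summit of each peak (vertical lines) along the 280 kb of the large cluster of chromosome 6, by distance from the start of the window in kb, with 1 panel per library. Of the 51 regions of this window, 25 have a peak in all 4 panels and 15 in only 1. A stretch of 47.1 kb holds only a few low peaks.

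Single peaks of the clusters ranked near the middle of their lists. The authors' fold enrichment at the summit had a median of 5.71 and 5.47 in control clusters, where the genome had 5.02 and 4.72, and of 6.80 and 6.46 in treated clusters, where the genome had 6.19 and 6.32. It was higher in the clusters in 4 of 4 libraries, by a mean of 0.548 (two-sided exact sign-flip permutation p = 0.13, the smallest possible). This order turned among stronger peaks: the mean difference was -0.450 with at least 5 reads at the summit and -0.861 with a summit at least 60 times the background. The percentile of a peak's −log10 p-value within its list had a cluster median of 50.7 and 49.1 in control and 57.1 and 48.5 in treated libraries. Set against the genome, this was a mean difference of 1.39 points, with 2 libraries higher and 2 lower (exact sign-flip permutation p = 0.75).

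Against the rest of chr6:25-29 Mb, the percentile difference was -1.04 and -1.30 points in control and 14.5 and 9.26 points in treated libraries (mean 5.35, exact sign-flip permutation p = 0.5). The surrounding medians were 51.8 and 50.4 in control and 42.6 and 39.3 in treated cells, so the groups did not overlap around the clusters, whereas they did within them. Few cluster peaks ranked high in any library. Peaks at or above the 90th percentile numbered 2 and 3 in control and 2 and 2 in treated clusters. This is 3.03% to 4.92% of the cluster peaks, against 9.99% to 10.03% in the genome, where the percentile itself fixes the share. In the rest of chr6:25-29 Mb it was 6.94% and 10.8% in control and 5.04% and 4.96% in treated libraries.

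The local background was high in the clusters. A peak's fold and −log10 p-value together give the reads at its summit and the local background it was set against, in reads per base. The most common background was 0.0613 and 0.060 in the control and 0.0965 and 0.108 in the treated libraries. Under cluster peaks the median local background was 5.87 and 6.41 times this level in control and 5.59 and 5.89 times in treated cells. Around the clusters it was 2.12 to 2.67 times, and in the genome 1.85 to 2.20 times. The clusters thus lay above both other areas in every library, whereas the ranges of those 2 areas overlapped.

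Because the p-value is computed from the summit reads and this local background, a cluster peak ranks by construction below a peak of equal reads on a lower background. In reads alone the listed cluster peaks stood higher than the genome's. Medians were 7 and 6 against 5 and 5 in control and 10 and 10 against 7 and 7 in treated libraries. By the same construction, a peak on a higher background needs more reads to be listed, so these medians come from unlike selections. At regions of all 4 lists, median reads in control were 8 and 7 both in the clusters and in the genome. In treated libraries they were 11 and 11 against 9 and 10.

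**Figure D4:**
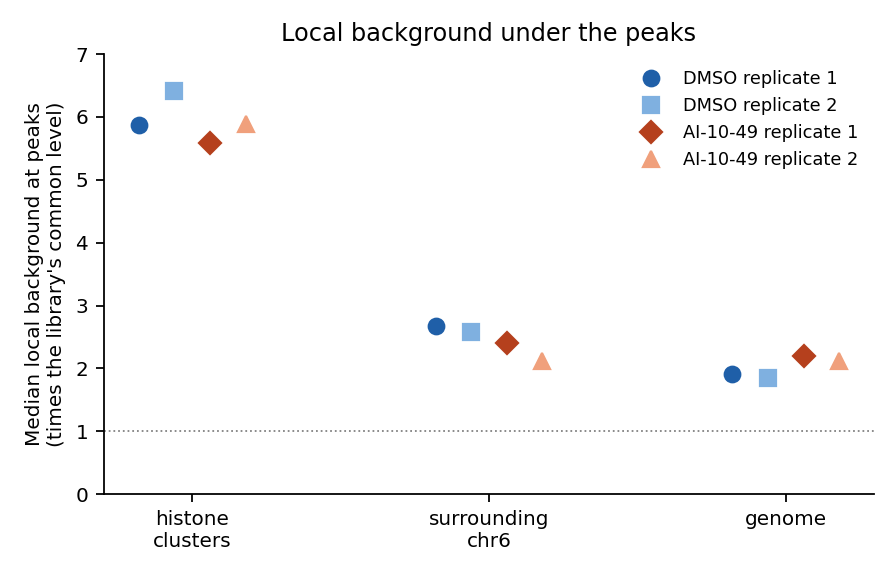
Median local background at peaks, as a multiple of the library's most common background, in the histone clusters, the rest of chr6:25-29 Mb (surrounding chr6) and the genome, with 1 point per library and a dotted line at 1. The clusters lie between 5.59 and 6.41 in all 4 libraries, above every value of the other areas.

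The strongest site of all clusters was chr6:27100398-27100943, 546 bp wide, in the small cluster, whose run holds genes of H2A, H2B and H4. It had 18 and 18 summit reads in control and 24 and 28 in treated cells. Over the library's common background this is 294 and 300.0 times in control and 249 and 260.2 times in treated cells, so that the treated libraries were higher in reads and lower in height. Its percentile was 92.0 to 94.6 in every list. In the same cluster, chr6:27114483-27115044 had 9 and 10 reads in control and 18 and 14 in treated cells. The third, chr6:27094915-27095174, had 9 and 5 in control and 11 and 8 in treated cells, where the groups overlap.

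In the large cluster, chr6:26021627-26021833 had 14 and 10 reads in control and 15 and 15 in treated cells. At chr6:26056392-26056792 there were 17 and 14 in control and 12 and 14 in treated cells. At chr6:26103921-26104477 there were 9 and 7 in control and 13 and 12 in treated cells. All 3 sites were at or above the 71st percentile in every list, with lowest values of 73.9, 73.7 and 71.3. The other 5 named by rank, chr6:26195645-26195745, chr6:26272980-26273327, chr6:26189084-26189477, chr6:26123200-26123487 and chr6:26157994-26158261, had lowest percentiles of 69.0, 66.9, 65.1, 64.3 and 61.4.

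In the middle-sized cluster the leading sites were lower, with a lowest percentile of 50.6 at chr6:27806020-27806422, 40.7 at chr6:27775665-27776048 and 40.2 at chr6:27860806-27861361. The first of these had 7 and 10 reads in control and 9 and 19 in treated cells. The second had 10 and 8 in control and 9 and 17 in treated cells, and the third 7 and 9 against 13 and 11. Replicates of the treated cells differed by more than the groups did at the first 2.

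On chromosome 1, replicates also differed widely at chr1:149858235-149858579, with 8 and 16 reads in control and 14 and 32 in treated cells. The neighbouring chr1:149859560-149859720 had 7 and 9 in control and 19 and 14 in treated cells, and chr1:149783917-149784148 had 7 and 6 against 9 and 15. In the second cluster of chromosome 1 a single region, chr1:228651356-228651613, was in all 4 lists, with 5 and 3 reads in control and 4 and 5 in treated cells. The other 4 regions there each occurred in 1 list.

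No difference in the number of cluster peaks between treatments was detectable. The mean was 63 ± 2.83 peaks in control and 61 ± 7.07 in treated libraries (SD, n = 2 each, two-sided exact permutation p = 1). The lists as a whole were shorter in treated cells, so the log2 density of the clusters over the genome was higher there, at 2.61 and 2.72 against 2.36 and 2.32. This difference of 0.32 had the smallest exact permutation p that 2 against 2 libraries allow, 0.33. With at least 5 reads at every summit it was 0.05 (exact permutation p = 0.67). Once the lists were cut to 1 length, treated clusters held 10.5 more peaks per library, and 13 more with a −log10 q-value of 5 or above (exact permutation p = 0.33 for each). For peaks with a summit at least 60 times the background the difference was -5 (exact permutation p = 0.33), so its sign depended on the cutoff. The median fold of cluster peaks minus that of the genome was 0.683 and 0.753 in control and 0.613 and 0.145 in treated cells, a difference of -0.339 (exact permutation p = 0.33) that turned to 0.518 with at least 5 reads. For the median percentile the difference was 2.75 points (exact permutation p = 1).

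Few cluster regions belonged to 1 treatment. DMSO-only regions, in both control lists and neither treated list, numbered 2 of 45 (4.44%), against 11.8% of all regions found in both control lists and 3.45% in the rest of chr6:25-29 Mb. They were chr6:26064887-26064994, with 4 and 2 reads, and chr6:26066279-26066380, with 3 and 4 reads. Both lie in the 47.1 kb gap of the large cluster and both are weak. AI-10-49-only regions, defined the opposite way, numbered 3 of 48 (6.25%), against 5.36% of all regions found in both treated lists, a share near that background. They were chr6:26020609-26020762 with 6 and 8 reads, chr6:26216542-26216634 with 7 and 7, and chr6:27832915-27833178 with 10 and 11. Of the 45 regions in both control lists, 41 (91.1%) were in all 4 lists, against 70.9% in the series and 75.9% in the rest of chr6:25-29 Mb.

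Both counts moved with the settings. Shares over all regions were not computed at these other settings, so the counts show only how far the calls move. Peaks of 2 reads were listed in control libraries only, and with at least 5 reads there were 0 DMSO-only and 6 AI-10-49-only regions. With 50% reciprocal overlap there were 7 and 14. Leaving out a library loosens both definitions, as 1 list then stands for its group, so these counts can only stay equal or rise. DMSO-only regions numbered 8 without control replicate 1, 11 without control replicate 2, and 3 without either treated replicate. AI-10-49-only regions numbered 6 without control replicate 1, 4 without control replicate 2, 10 without treated replicate 1 and 9 without treated replicate 2.

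Height, the summit reads over the library's common background, was lower in treated cells at most regions of the genome, and at a smaller share in the clusters. The background it is divided by was higher in the treated libraries, and the direction depends on this scaling. At the 41 cluster regions of all 4 lists the median was 131 and 117 times the background in control and 114 and 102 times in treated cells. At such regions of the genome it was likewise 131 and 117 times in control, but 93.3 and 92.9 times in treated cells. In the rest of chr6:25-29 Mb it was 114 and 125 times in control and 82.9 and 74.3 times in treated cells. In reads, without this scaling, the medians were higher in treated cells. They were 8 and 7 in control and 11 and 11 in treated clusters. In the genome they were 8 and 7 against 9 and 10, and in the rest of chr6:25-29 Mb 7 and 7.5 against 8 and 8. Clusters minus genome, the log2 difference in median height was 0 and 0 in control and 0.29 and 0.14 in treated cells. It rests on median reads that are small whole numbers, equal in control and 11 and 11 against 9 and 10 in treated cells. The mean difference between treatments of 0.21 had the smallest possible two-sided exact permutation p, 0.33. It was 0.01 with 50% reciprocal overlap (exact permutation p = 1) and 0.41 without treated replicate 2.

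Region by region, height was lower in both treated libraries than in both control libraries at 9 of 41 cluster regions, where the share over the series was 47.9%, and higher at 3, where it was 5.21%. In the rest of chr6:25-29 Mb it was lower at 42 of 66 regions and higher at 0. By percentile, 3 of 41 cluster regions were lower in both treated libraries, against 29.2% of the series, and 4 were higher, against 11.8%. In the rest of chr6:25-29 Mb 27 of 66 were lower and 6 were higher.

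**Figure D5:**
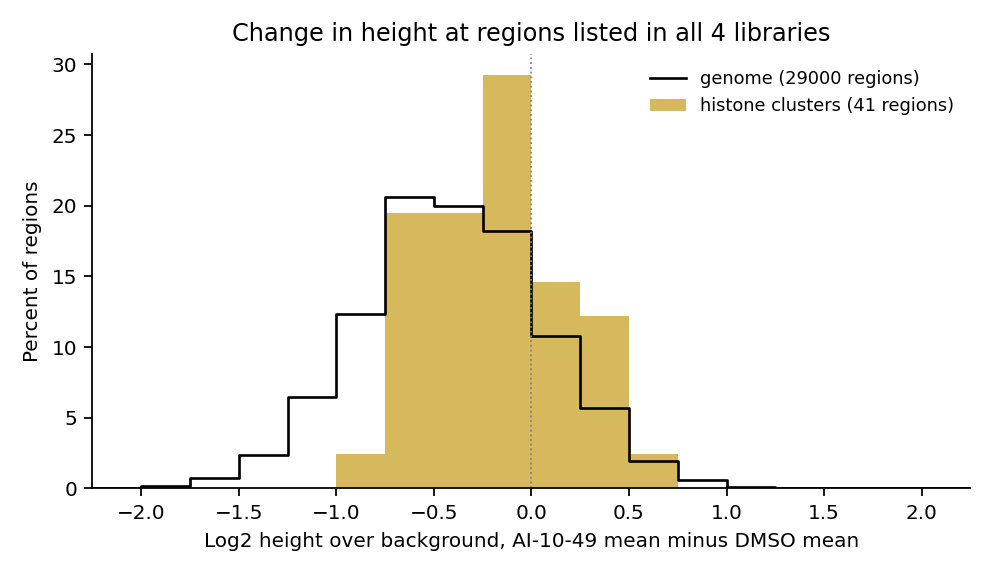
Distribution of the log2 height over background, mean of the treated libraries minus mean of the control libraries, in bins of 0.25, for regions listed in all 4 libraries (filled, histone clusters; line, rest of the genome). The cluster median is -0.16 and the genome median -0.41, and 29 of 41 cluster regions lie below 0, against 80.9% in the genome. The background that reads are divided by was higher in the treated libraries.

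The region whose height was lowest in treated against control cells was chr6:26056392-26056792. It stood at 277 and 233 times the background in control and at 124 and 130.1 times in treated cells, and its percentile was 93.4 and 91.1 against 73.7 and 75.0. The groups did not overlap on either scale, but in reads they met at 14. At chr6:26204662-26205007 the heights were 163 and 150 in control against 114 and 102 times. The reads there went the other way, at 10 and 9 in control and 11 and 11 in treated cells. At chr6:27839993-27840248 the heights were 114 and 100.0 in control against 62.2 and 74.3 times. The reads there overlapped, at 7 and 6 in control and 6 and 8 in treated cells. These 3 were the cluster regions whose percentile was lower in both treated libraries.

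In the opposite direction, chr6:26216714-26217137 had 65.3 and 117 times the background in control and 124 and 139 times in treated cells, with percentiles of 16.7 and 65.3 against 70.6 and 78.8. At chr6:26183785-26184106 the heights were 65.3 and 66.7 in control against 82.9 and 83.6 times. At chr6:26027266-26027646 the percentiles were 5.01 and 47.7 in control against 54.6 and 51.2, but the heights of 65.3 and 117 against 104 and 92.9 times overlapped. All 3 lie in the large cluster. Where a summit has as few as 4 reads, 1 read moves these values by a large share, and no test of a single region was made.

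Cluster peaks also covered more bases in treated cells, a measure looked at only once the values were known. They covered 9251 and 9614 bp in control and 11467 and 12055 bp in treated libraries. The mean width of a cluster peak was 142 and 158 bp in control (150 ± 10.8, SD, n = 2) and 205 and 183 bp in treated cells (194 ± 15.6, SD, n = 2). In the genome it was 132 and 128 bp in control and 144 and 149 bp in treated cells. Covered length and mean width did not overlap between groups in the clusters, whereas the number of peaks did. Covered length in the clusters over that in the genome was higher by 0.52 on the log2 scale in treated cells (two-sided exact permutation p = 0.33, the smallest possible), and by 0.30 to 0.82 under 14 other settings. Pairing by replicate number, among these settings, keeps the value by construction. Peaks with more than 1 summit made up 7.69% and 4.92% of cluster peaks in control and 16.1% and 16.7% in treated cells, where the genome had 3.8% and 3.09% in control and 6.90% and 7.38% in treated cells. The treated libraries had the higher common background, and its part in these widths was not tested.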

How the data were processed

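ATAC-seq peak lists of 4 ME-1 libraries were used, with groups and replicate numbers from the sample titles. Per the submitters' processing notes the build was hg19 and the tools included cutadapt 1.3, Bowtie2, Picard 1.96, MACS2 2.1.0 and deepTools. Their roles and the settings of peak calling are not given in the sources used here. For every peak the authors deposited a score, not used here. They also deposited a fold enrichment (a ratio with a pseudocount of 1), a −log10 p-value and a −log10 q-value. These are the authors' own values of a peak within its list, and across libraries they only describe.

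Chromosomes 1 to 22 and X were analysed, and rows with equal coordinates became 1 peak. Summit reads and local background were solved from the fold and p-value of a peak by a Poisson calculation. The reads came out as a whole number, within 0.001 on the −log10 scale, for 99.99% of peaks. Depth is known only through these reads. Peaks overlapping by at least 1 bp were merged into regions. Genome length ran to the last peak of each chromosome. Gene order and promoters came from RefSeq's GRCh38.p14, without its coordinates, by the first promoter listed for a gene.

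Libraries, not peaks, were the replicates. Clusters and other areas were compared by two-sided exact sign-flip permutation over 4 libraries, and treatments by two-sided exact permutation of 2 against 2. The p-values measure only the spread between these libraries. Regions named were, by the lowest of 4 percentiles, the 8 strongest of the large cluster and the 3 strongest of each other cluster, then every region of 1 treatment, and the 3 largest shifts in percentile each way among regions without overlap of the groups. The 47.1 kb gap, the covered length and the setting without the large cluster were chosen after seeing the data, and the members and lists were chosen with earlier results of these data known. Alternatives were stricter or equal-length lists, another overlap, other windows and leaving out each library. Recovery of reads and merging were tested on simulated data, with local backgrounds lower than the median under cluster peaks. Python 3.11.15, numpy 2.4.6, pandas 2.3.3, scipy 1.17.1 and matplotlib 3.10.9 were used.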

Additional observations from a re-analysis of the deposited data

How the results depend on the processing

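Density in the clusters was above that of the surrounding part of chromosome 6 and of the genome under all 13 alternatives, with mean log2 ratios of 1.15 to 2.09 and 2.1 to 3.0. The log2 density over the genome was higher in treated cells under all 14, by 0.05 to 0.47, though the replicate block described below keeps the value by construction. No alternative can pass a threshold of 0.05 with 4 libraries, so p-values say nothing about stability. The settings below are q5 (a −log10 q-value of 5 or above), equal lists (the strongest peaks, as many as the shortest list holds), short lists (0.5 times as many), 5 reads, 60 times (the background), every summit row, and no large cluster, the last chosen after seeing the data. Against the genome, the percentile difference turned to -2.993 (q5), -1.12 (equal lists), -12.4 (short lists), -13.7 (5 reads), -19.8 (60 times), -0.98 (every summit row) and -1.40 (no large cluster), and lay between -0.51 and 2.38 on leaving out a library. Against the surrounding part it turned to -3.53 (short lists), -8.42 (5 reads) and -8.99 (60 times). Fold turned to -0.219 (5 reads) and -0.210 (60 times) against the surrounding part, and to -0.516 (short lists), -0.450 (5 reads) and -0.861 (60 times) against the genome. Treated minus control cluster peaks turned to 13 (q5), 10.5 (equal lists), 8.5 (short lists), 9.5 (5 reads) and 5.5 (every summit row), and ranged from -7 to 3 on leaving out a library. At 60 times this difference was -5. The treatment difference of fold turned from -0.339 to 0.256 (q5) and 0.518 (5 reads). That of percentile turned from 2.75 to -0.989 (every summit row) and -2.86 (no large cluster), with -1.58 to 7.08 on leaving out a library. DMSO-only regions numbered 0 with q5, equal lists, short lists, 5 reads, 60 times and no large cluster, 7 with 50% reciprocal overlap, and 3 to 11 on leaving out a library. AI-10-49-only regions numbered 6 (5 reads), 1 (no large cluster), 14 (reciprocal overlap) and 4 to 10 on leaving out a library. Regions of all lists numbered 15 (q5), 12 (short lists), 16 (no large cluster) and 16 (reciprocal overlap). For such counts no share over all regions was computed at these settings. The cause of these changes was not tested, beyond the fewer peaks or windows that the settings themselves leave. On leaving out a library, region counts can only stay equal or rise, as their definitions loosen. With a replicate block (pairing by replicate number, smallest exact sign-flip permutation p = 0.5) the treatment differences kept their values, 0.32 in density, 0.52 in covered length and 0.21 in height, each with that p. Deviations of same-numbered libraries had r = -0.0025 over 29042 regions. With 2 pairs and few reads per summit this cannot tell whether libraries were handled in pairs, which the sample titles do not say. Summits of cluster regions listed in all libraries held 3 to 32 reads, and no single region was tested.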
